A study of Mus musculus with 36 samples.

Results

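Livers of mice given bacterial lipopolysaccharide (LPS) followed by genipin were compared with livers of mice given LPS alone, across all genes measured on the arrays. The comparison used 6 liver arrays, 3 labelled LPS plus genipin and 3 labelled LPS, of 36 arrays in the series, and 3 liver arrays of mock mice served as the untreated level. It covered 8641 genes, each represented by the probe with the highest mean intensity. All mice were female transgenic animals of the FVB strain, 6 to 8 weeks old, and the series text has them imaged for luciferase activity before tissues were taken. No source used here says what drives the luciferase transgene. LPS+genipin mice received LPS into the peritoneal cavity at 4 mg/kg and genipin 10 min later, LPS mice received the LPS alone, and mock mice had no treatment. Tissues were collected 4 h later. The series text lists genipin doses of 1, 10 and 100 mg/kg without saying which the arrayed mice had. Since no label ties the 3 arrays of a condition to different mice, the p-values below measure only the spread between arrays, which may be technical. No group given genipin without LPS was analysed here.

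LPS is a component of the outer membrane of Gram-negative bacteria that is bound by LPS-binding protein and CD14 and recognised by TLR4 with its partner MD-2. One branch of the signal, through MyD88, activates NF-kB and inflammatory cytokine genes, and the other, through TRIF, induces type I interferon, which in turn switches on interferon-stimulated genes. The liver answers with acute-phase proteins secreted by hepatocytes. Genipin is the aglycone of geniposide, an iridoid of gardenia fruit, and reacts with amino groups of proteins. Cells exposed to reactive or protein-damaging compounds commonly show 2 further programmes, the antioxidant genes governed by the transcription factor NRF2 and the chaperone genes governed by heat shock factors.

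The arrays of a group were close to each other. Pearson correlations of log2 intensities over genes were 0.988 to 0.996 among the LPS+genipin arrays, 0.985 to 0.993 among the LPS arrays and 0.993 to 0.996 among the mock arrays. The median SD of a gene was 0.0882 log2 units in the LPS+genipin group, 0.127 in the LPS group and 0.0793 in the mock group. As for the labelled tissue, the intensities of albumin (Alb), apolipoprotein A-I (Apoa1), transthyretin (Ttr) and Cyp2e1 were above 60000, near the ceiling of the scanner, on all 9 arrays. These 4 genes, like 174 genes in all with both groups at the same limit of the scale, could show no difference here.

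In the LPS+genipin livers 2535 genes were higher and 2131 lower than in the LPS livers at an adjusted p under 0.05, which is 29.3% and 24.7% of the 8641 tested, or 54% together. Changes of at least 2-fold were fewer, with 301 genes higher (3.48%) and 420 lower (4.86%), together 8.34%. The difference of a gene, given throughout as log2 of LPS+genipin minus log2 of LPS with its standard error, ranged from -4.23 to 3.58 and had a median of 0.030. The 3 arrays of one group lay wholly above or below those of the other for 60.3% of genes, 33% upward and 27.3% downward. For LPS against mock, which uses the same LPS arrays, 66% of genes passed the threshold, 29.3% higher and 36.8% lower. The share of a gene group that was called is read below against these background shares. The 5 largest losses were all of interferon-stimulated genes, and the largest gains included a heat-shock protein, 3 genes of the NRF2 list and a tubulin. The plot of gene levels in the 2 groups shows these groups against all genes.

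**Figure D1:**
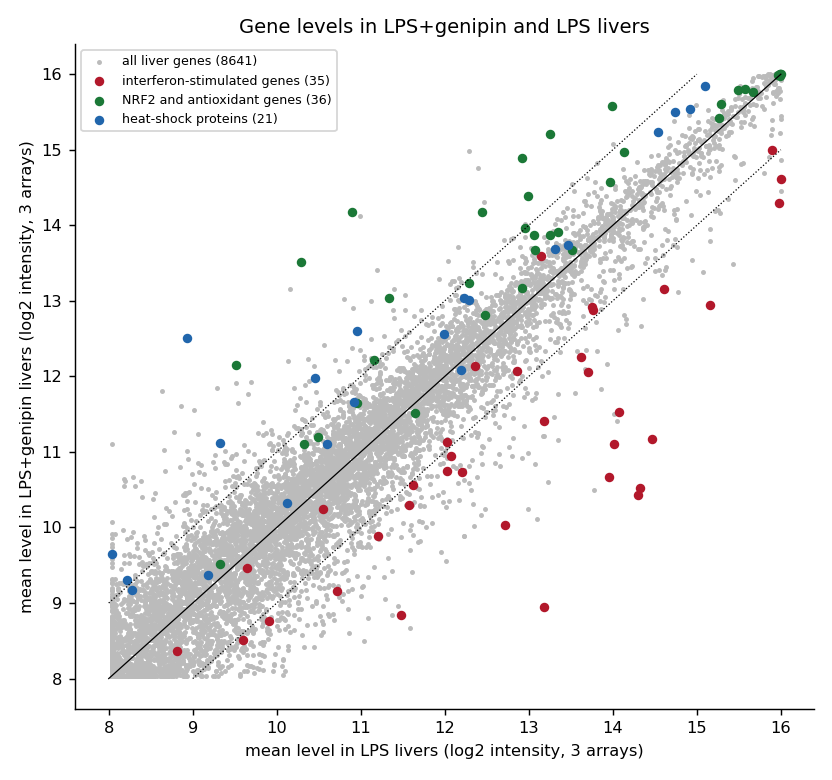
Mean level of each of the 8641 liver genes in LPS+genipin livers (vertical axis) against LPS livers (horizontal axis), both in log2 intensity over 3 arrays; the solid line marks equality and the dotted lines 2-fold differences. Most interferon-stimulated genes (red) lie below the lower dotted line, while NRF2 and antioxidant genes (green) and heat-shock genes (blue) mostly lie on or above the solid line.

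Interferon-stimulated genes were lower in the LPS+genipin livers almost throughout the list. Of 46 listed genes 35 were measured, and 32 of these fell, 25 of them by at least 2-fold, 1 rose and 2 did not pass the test. The median difference was -1.36, against 0.030 over all genes. The median of the same genes for LPS minus mock was 2.44, and for LPS+genipin minus mock it was 0.82; these 3 comparisons share arrays with each other. Many genes of this class carry interferon-stimulated response elements near their start, and promoter sequences of 4 of them are shown here because they are among the genes with the largest losses and hold its core letters, GAAA, any 2 bases and GAAA again. Gbp2 was chosen for this after its values were seen. The sequences are from RefSeq on GRCm38.p6, read 5′ to 3′ in the direction of the gene, with matches on either strand in capitals.
Ifit3 (chr19:34583323-34583466, plus strand): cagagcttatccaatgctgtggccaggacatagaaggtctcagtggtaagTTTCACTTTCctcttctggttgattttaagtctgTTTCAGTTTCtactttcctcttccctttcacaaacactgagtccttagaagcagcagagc
Isg15 (chr4:156200825-156200946, minus strand): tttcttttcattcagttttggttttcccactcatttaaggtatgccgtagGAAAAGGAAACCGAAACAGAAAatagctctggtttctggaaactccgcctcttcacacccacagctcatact
Rsad2 (chr12:26456513-26456622, minus strand): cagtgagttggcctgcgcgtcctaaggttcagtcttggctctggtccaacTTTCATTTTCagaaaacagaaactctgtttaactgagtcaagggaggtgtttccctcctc
Gbp2 (chr3:142620554-142620663, plus strand): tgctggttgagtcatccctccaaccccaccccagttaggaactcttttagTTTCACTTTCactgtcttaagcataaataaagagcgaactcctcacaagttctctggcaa
The Ifit3 promoter held 2 such matches, that of Isg15 3 overlapping ones, and those of Rsad2 and Gbp2 1 each. Ifit2 and Cmpk2, with the largest losses, held none in the windows searched, nor did Isg20. In windows from 250 bases before to 50 bases after the start of a gene, with both strands searched, the letters occurred in 13 of 28 interferon-stimulated genes that had a promoter entry (46.4%). They occurred in 3.57% of the 7055 liver genes with an entry and in 3.99% of all 27025 genes with one. Promoters on a single chromosome were left out of all motif searches here, so genes there count as without an entry. Among the genes lower by at least 2-fold the share was 8.06% (27 of 335), and among those higher by at least 2-fold it was 2.52% (6 of 238).

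The largest loss was that of Ifit2, an interferon-induced antiviral protein. Its intensity was 528, 466 and 489.6 in LPS+genipin livers, against 10612, 8631 and 8638 in LPS livers and 287, 302 and 303 in mock livers. The treated arrays thus lay far below all LPS arrays and above the mock arrays, and the difference was -4.23 ± 0.089 (SE), with an adjusted p of 7.73e-08, an 18.7-fold lower level. Ifit3, of the same family, had 1399, 1533 and 1469 in LPS+genipin livers, against 20512, 20371 and 20699 in LPS livers and 939, 918 and 895 in mock livers. Its groups did not overlap, and its difference was -3.81 ± 0.046 (SE), with an adjusted p of 9.82e-09. Cmpk2, a mitochondrial nucleotide kinase encoded next to Rsad2, had 1250.2, 1398 and 1483 in LPS+genipin livers and 19047, 21968 and 19522 in LPS livers, with 676, 596 and 665 in mock livers. It was 14.7-fold lower, with an adjusted p of 1.07e-07.

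Isg15, the ubiquitin-like modifier of the interferon response, measured 2212, 2562 and 2149 in LPS+genipin livers, against 22642, 22191 and 23239.8 in LPS livers and 1069, 1010.3 and 959 in mock livers. Usp18, the enzyme that removes ISG15 from proteins and dampens interferon receptor signalling, measured 2253, 2262 and 2119 in LPS+genipin livers, against 15226, 16873 and 17616 in LPS livers and 1017, 1119 and 891 in mock livers. Neither gene had overlapping groups. Isg15 was 9.86-fold lower (adjusted p 1.07e-07) and Usp18 7.48-fold lower (adjusted p 4.52e-07). Rsad2, the antiviral enzyme viperin, measured 1601, 1554 and 1724 in LPS+genipin livers, against 16555, 16285 and 15003 in LPS livers and 524, 497 and 548 in mock livers, a difference of -3.29 ± 0.064. The plot of levels by array shows these genes.

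Other members with large losses were the exonuclease Isg20 (6.44-fold lower) and Dhx58, a regulator of RIG-I-like RNA sensors (6.23-fold lower). Dhx58 measured 449, 474 and 451 in LPS+genipin livers, 2693, 2901 and 2961 in LPS livers and 648, 632 and 606 in mock livers, so that the treated arrays lay below the mock arrays too. Samhd1, which degrades deoxynucleotides and is not on the list, was 6.23-fold lower, with 2566, 2837 and 2789.8 in LPS+genipin livers, against 15702, 18632 and 16774 in LPS livers and 2607, 2371 and 2769 in mock livers, so that its treated and mock arrays overlapped. Guanylate-binding proteins and related interferon-inducible GTPases act on the membranes of intracellular pathogens. Gbp2 had 7347, 7768 and 8488 in LPS+genipin livers, against 33799, 39009 and 36877 in LPS livers and 1104, 1127 and 1132 in mock livers, a 4.65-fold loss. Ifi47 was at the ceiling on all 3 LPS arrays and measured 19996, 19350.3 and 20799 in LPS+genipin livers, so it was at least 3.23-fold lower. Gbp6 was the one member that rose, with 12651, 12029 and 12324 in LPS+genipin livers, against 8914, 8744 and 9595 in LPS livers and 13759, 13098 and 14352 in mock livers, a difference of 0.44 ± 0.055 (SE), with an adjusted p of 0.000373. The 2 members without a call were Irf9, a subunit of the interferon-activated transcription factor, at -0.30 ± 0.11 (adjusted p 0.0551), and Tapbp, which loads peptides on class I molecules, at -0.19 ± 0.22 (adjusted p 0.504).

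**Figure D2:**
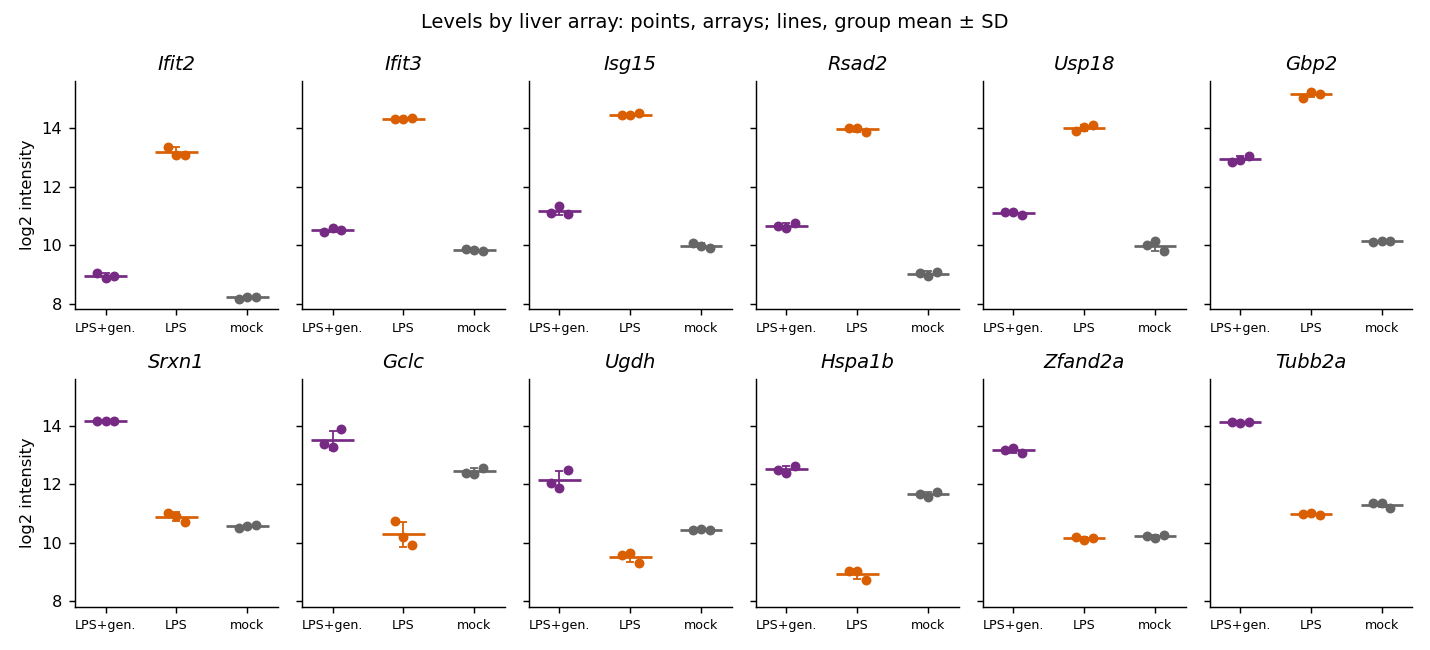
Levels of 12 genes in log2 intensity on each of the 9 liver arrays, with LPS+genipin left of LPS and mock; points are arrays, horizontal lines group means and error bars the SD of 3 arrays. The 6 interferon-stimulated genes of the upper row are lower in LPS+genipin than in LPS livers with differences of -4.23 to -2.22 log2 units, and the 6 genes of the lower row are higher, with differences of 2.63 to 3.58.

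Chemokines and cytokines, the secreted signals that recruit and activate leukocytes, were lower where they were called, with 1 exception. Of 11 chemokines measured, 7 fell and 1 rose, and of 10 cytokines and growth factors 6 fell and 0 rose. The medians were -0.52 and -0.91. Cxcl10, a T cell attractant induced by interferon and counted in that list too, measured 4372, 4407 and 4011 in LPS+genipin livers, against 14083, 12705 and 13312 in LPS livers and 433, 476 and 406 in mock livers. It was 3.14-fold lower and still above every mock array. Cxcl9, likewise in both lists, was at the ceiling on the 3 LPS arrays and measured 23764, 26389.8 and 24926 in LPS+genipin livers, at least 2.62-fold lower on the probe used. A second Cxcl9 probe was also called lower, with a smaller difference of -0.93. Ccl5, which attracts T cells and monocytes, measured 5084, 5111 and 5191 in LPS+genipin livers, against 10742, 10315 and 10845 in LPS livers and 281, 203 and 222 in mock livers. Its groups did not overlap, and its difference was -1.05 ± 0.045 (SE), with an adjusted p of 1.57e-06. Cxcl13, the B cell attractant, went the other way, with 23365, 25649 and 23144 in LPS+genipin livers, against 12841, 12149 and 10223 in LPS livers and 554, 572 and 537 in mock livers, a 2.06-fold higher level (adjusted p 4.9e-05). The probe used for Cxcl12 was not called (0.051), but a second probe of that gene was called higher at 0.62.

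Il6, the inducer of the hepatic acute-phase response, measured 725, 678 and 632 in LPS+genipin livers, against 1477, 1655 and 1842 in LPS livers and 183, 203 and 189.7 in mock livers. All treated arrays lay below all LPS arrays, and the difference was -1.29 ± 0.085 (SE), with an adjusted p of 1.4e-05. Il33, an alarmin of the interleukin-1 family, measured 1599, 1608 and 1679 in LPS+genipin livers, against 5742, 5136 and 5138 in LPS livers and 313, 332 and 317 in mock livers, a 3.27-fold loss. Il1rn, which encodes the antagonist of the interleukin-1 receptor, was 2.49-fold lower, at 2586, 2504 and 2599 in LPS+genipin livers and 7072, 6305 and 5862 in LPS livers. Il27 (-1.34) and Il15 (-0.98) also fell, but neither passed the test with the floor doubled (adjusted p 0.0637 and 0.102). Il18 (-0.38, adjusted p 0.0548) and Osm (-0.16, adjusted p 0.368) did not pass.

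Of 19 genes that recognise LPS and carry its signal, 8 were lower, above the background share of 24.7%. The 5 that were higher stood near the background share of 29.3%, and the median was -0.30. Cd14, the co-receptor that hands LPS to TLR4, was at the ceiling on the LPS arrays and measured 30232, 29423 and 29760.3 in LPS+genipin livers, at least 2.2-fold lower, with 1362, 1359 and 1344 in mock livers. Tlr2, the receptor for bacterial lipoproteins, measured 5297, 5237 and 5129 in LPS+genipin livers, against 8864, 9847 and 7594 in LPS livers, a difference of -0.74 ± 0.097. Ly96, which encodes MD-2, rose, with 7938, 6839.9 and 7802 in LPS+genipin livers, against 2983, 2819 and 3071 in LPS livers and 2296, 2202 and 1559 in mock livers, a 2.54-fold higher level (adjusted p 0.000161). Map3k7, the kinase TAK1, also rose (0.66 ± 0.14). Tlr4 itself was dim, at 221, 177 and 219 in LPS+genipin livers, all under the floor of 263, and 269, 383 and 482 in LPS livers, and did not pass the test (adjusted p 0.0601), though it passed in 4 of 22 alternative settings.

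Of 17 NF-kB subunits, feedback regulators and targets, 9 fell and 2 rose, with a median of -0.19. Birc3, an NF-kB-induced inhibitor of cell death, measured 2497, 2216 and 2597 in LPS+genipin livers, against 5436, 5000.2 and 5621 in LPS livers and 962, 939 and 906 in mock livers, a 2.2-fold loss. Tnip1, which restrains NF-kB together with A20, fell less evenly, with 1648, 2585 and 2397 in LPS+genipin livers, against 3609, 3746 and 3392 in LPS livers. The adhesion molecule Icam1 was one of the 2 that rose, with 14123, 14796 and 15394 in LPS+genipin livers, against 9361, 9789 and 8689 in LPS livers and 1062, 999 and 1119.5 in mock livers, a difference of 0.67 ± 0.066 (SE), with an adjusted p of 0.000104. The other was the subunit Rela at 0.44, named because only 2 members rose. Among 20 cell death regulators 9 fell and 3 rose. Beside Birc3, the largest changes were those of the inflammatory caspases Casp4 (-1.22) and Casp1 (-0.86), the necroptosis effector Mlkl (-0.83) and the pore-former Gsdmd (-0.73). A second Gsdmd probe gave -0.17 and was not called.

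Genes of the NRF2 and antioxidant list were higher or uncalled, and none of the measured members fell. Of 36 members measured, 25 rose, 11 of them by at least 2-fold, and 11 did not pass the test, of which 5 were at the ceiling in both groups. The median difference was 0.61, and the medians for LPS minus mock and LPS+genipin minus mock were -0.23 and 0.41. Srxn1, which repairs over-oxidised peroxiredoxins, measured 18338, 18632 and 18632 in LPS+genipin livers, against 2083, 1946 and 1689 in LPS livers and 1459, 1537 and 1567 in mock livers. The treated arrays lay far above both other groups, and the difference was 3.29 ± 0.076 (SE), with an adjusted p of 1.07e-07, a 9.76-fold gain. Gclc, the catalytic subunit of the enzyme that limits glutathione synthesis, measured 10795, 9860.3 and 15066 in LPS+genipin livers, against 1721, 1177 and 973 in LPS livers and 5391, 5278 and 6069 in mock livers. Its spread within groups was wider, but all treated arrays lay above all arrays of the other groups, and it was 9.34-fold higher than in LPS livers (adjusted p 1.9e-05). Hmox1, heme oxygenase 1, measured 37966, 37867 and 37312 in LPS+genipin livers, against 10271, 9501 and 9492 in LPS livers and 4736, 3968 and 4649 in mock livers, a 3.87-fold gain. Osgin1, an oxidative-stress-induced growth inhibitor, was 3.93-fold higher, with 30568, 31064 and 29475 in LPS+genipin livers, against 7712, 7659 and 7827 in LPS livers and 16620.0, 19096 and 18002 in mock livers.

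Ugdh, which makes UDP-glucuronic acid for conjugation reactions, measured 4281, 3791 and 5804 in LPS+genipin livers, against 766, 810.1 and 635 in LPS livers and 1385, 1422 and 1392 in mock livers, a difference of 2.63 ± 0.16 (SE), with an adjusted p of 8.32e-06. Gclm, the modifier subunit partnered with Gclc, was added for its promoter after its values were seen and measured 18002, 18393 and 19402 in LPS+genipin livers, against 5630.2, 5610.0 and 5431 in LPS livers, a 3.35-fold gain. NRF2 binds antioxidant response elements, whose core letters TGACNNNGC are in capitals in these promoters of Ugdh and Gclm, shown because both genes are more than 3-fold higher and hold them near the start.
Ugdh (chr5:65435878-65436024, minus strand): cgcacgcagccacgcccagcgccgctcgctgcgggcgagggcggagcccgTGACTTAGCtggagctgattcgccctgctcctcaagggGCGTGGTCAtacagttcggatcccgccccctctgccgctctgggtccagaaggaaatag
Gclm (chr3:122245373-122245481, plus strand): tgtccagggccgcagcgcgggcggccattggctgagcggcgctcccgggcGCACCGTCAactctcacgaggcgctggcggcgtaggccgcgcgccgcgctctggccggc
Srxn1 and Osgin1, described above, held no match from 250 bases before to 30 bases after the start. Neither did Nqo1 or Slc7a11, while a window of Txnrd1 held 1. The letters were found in 11 of 30 list members with a promoter entry (36.7%), against 17.2% of liver genes and 14% of all genes with an entry. They were found in 20.6% of genes higher by at least 2-fold and in 21.8% of genes lower by at least 2-fold, similar shares in both directions. The catalase gene Cat was the uncalled member with the largest difference, at 0.23 ± 0.085 (adjusted p 0.0506), and it was called under 8 of the 22 alternative settings.

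Heat-shock proteins and their co-chaperones, which fold proteins and refold damaged ones, were higher in the LPS+genipin livers. Of 21 measured, 18 rose, 0 fell and 3 did not pass the test, with a median of 0.74. The median for LPS minus mock was -0.71, and for LPS+genipin minus mock 0.035. Hspa1b, an inducible HSP70, measured 5749, 5421 and 6387 in LPS+genipin livers, against 529, 519.9 and 422 in LPS livers and 3267, 3044 and 3439.6 in mock livers. The treated arrays were above the mock arrays and the LPS arrays below them, and the difference from LPS was 3.58 ± 0.10 (SE), with an adjusted p of 3.08e-07, a 12-fold gain. Hspa1b has a nearly identical neighbour, Hspa1a, and a probe may read both. Dnajb1, an HSP40 that partners HSP70, measured 6125, 6293 and 6267 in LPS+genipin livers, against 2099, 2106 and 1765 in LPS livers and 5984, 5906 and 6352 in mock livers, so that the treated arrays overlapped with the mock arrays. Its gain over LPS was 3.14-fold (adjusted p 2.06e-06). Dnajb4 was under the floor on all LPS arrays and measured 722, 855 and 836 in LPS+genipin livers, at least 3.05-fold higher. Hsf2, a heat shock transcription factor, was 3.47-fold higher, with 2253, 2302 and 2139 in LPS+genipin livers, 637, 637 and 655 in LPS livers and 2481, 2585 and 2079 in mock livers.

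Chordc1, an HSP90 co-chaperone, measured 4235, 3979.8 and 3909.6 in LPS+genipin livers, against 1488, 1461 and 1260.2 in LPS livers and 2849, 2689 and 2789.8 in mock livers, a difference of 1.53 ± 0.071 (SE), with an adjusted p of 2.52e-06. Its promoter is shown because it alone among the 16 list members measured in liver that had an entry held the heat shock element in the window searched, 3 times in overlap around the start. The letters searched were GAA, any 2 bases, TTC, any 2 bases and GAA.
Chordc1 (chr9:18292213-18292296, plus strand): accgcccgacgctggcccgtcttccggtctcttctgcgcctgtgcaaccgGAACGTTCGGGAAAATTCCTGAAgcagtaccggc
The same letters were in 0.567% of liver genes and 0.662% of all genes with an entry. Zfand2a, an arsenite- and heat-inducible protein that binds the proteasome, was not on the list and was 7.98-fold higher, with 9231, 9717 and 8552 in LPS+genipin livers, against 1184, 1105 and 1152 in LPS livers and 1204, 1140.1 and 1239.7 in mock livers. Its LPS and mock arrays overlapped. Hspa4l (0.21, adjusted p 0.221) and Cryab (0.19, adjusted p 0.0669) did not pass the test.

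**Figure D3:**
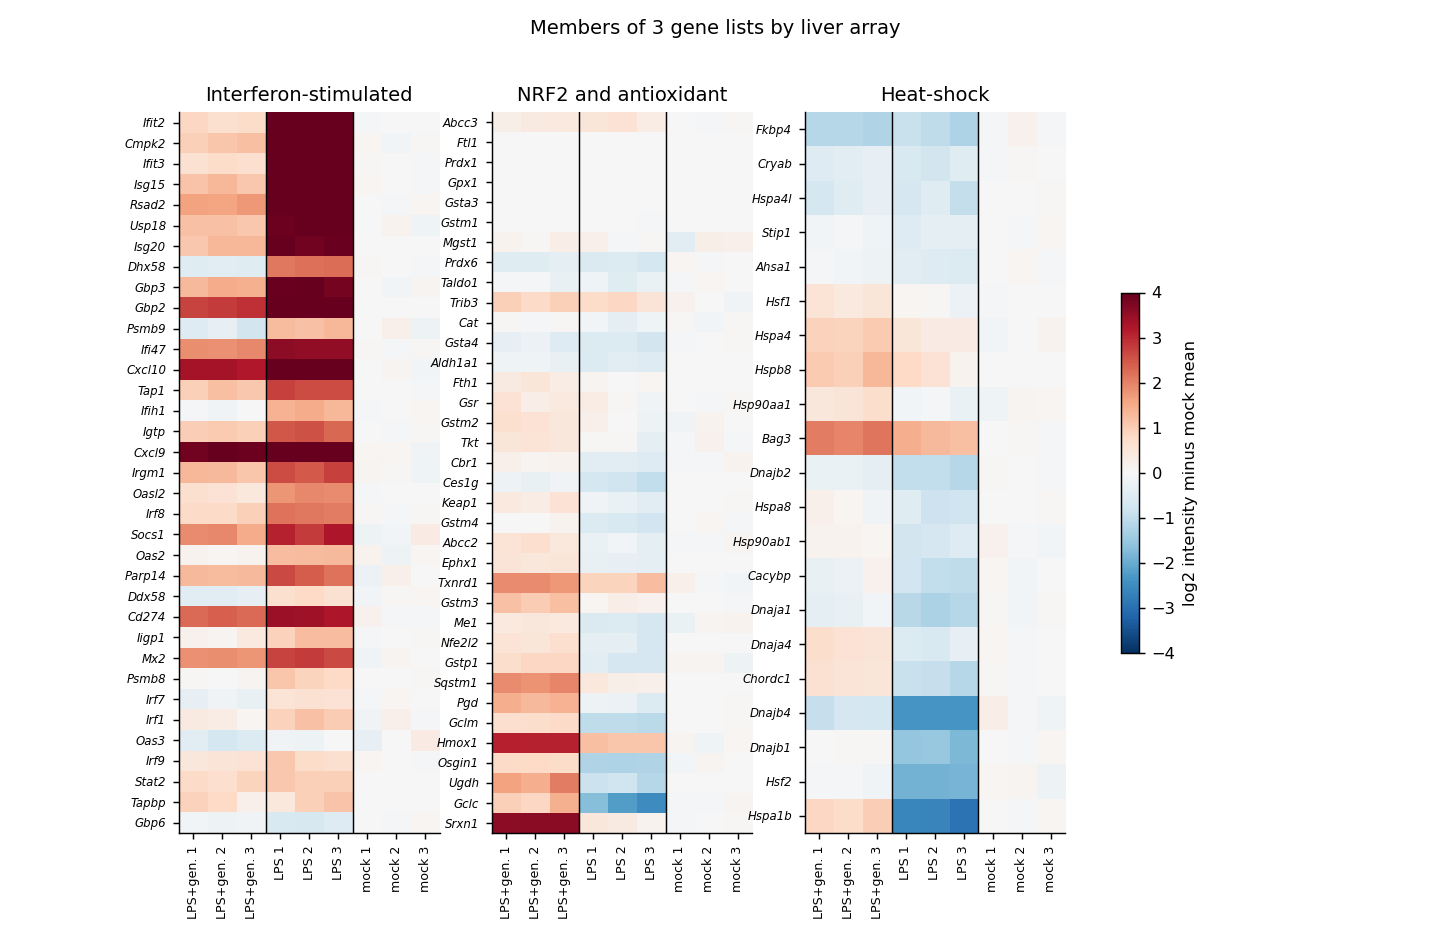
Level of each measured interferon-stimulated, NRF2 and antioxidant, and heat-shock gene on each liver array, as log2 intensity minus the mean of the 3 mock arrays; columns run LPS+genipin, LPS, mock, rows are sorted by the difference between LPS+genipin and LPS, and colours end at -4 and 4. LPS+genipin columns are paler than LPS columns for most interferon-stimulated genes, and redder or less blue for most heat-shock genes and for the lower rows of the antioxidant panel.

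Genes of the proteasome, which degrades ubiquitin-tagged proteins, were mostly higher. Of 34 genes of the proteasome and ubiquitin list 23 rose and 4 fell, against 29.3% and 24.7% of all genes. The median was 0.32 and no gain was as large as 2-fold. Psmc2, an ATPase of the regulatory particle, was the highest at 0.74 ± 0.089, with 7169.7, 7512 and 8362 in LPS+genipin livers, against 5198, 4238 and 4387 in LPS livers. Usp14, a deubiquitinase on the proteasome, was next at 0.70 ± 0.063. The members that fell were Psmb9 (-1.78), Psmb10 (-1.22) and Psmb8 (-0.89), the interferon-inducible catalytic subunits of the immunoproteasome, and the activator subunit Psme1 (-0.25), named since only 4 fell. Psmb8 and Psmb9 are in the interferon list as well. Psmb9 measured 2747, 3093 and 2350.3 in LPS+genipin livers, against 9396, 8752 and 9809.7 in LPS livers and 3903, 4519 and 3397 in mock livers.

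Ribosome biogenesis genes were mostly higher, 15 of 27 against 2 lower, with a median of 0.40. Nop56, a core protein of the particles that methylate ribosomal RNA, measured 2017, 2046 and 1939 in LPS+genipin livers, against 652, 644 and 554 in LPS livers and 687, 627 and 586 in mock livers, a 3.25-fold gain. Heatr1, needed for transcription and processing of ribosomal RNA, went the other way, with 8519, 9313 and 8958 in LPS+genipin livers, against 27181, 30487 and 26912 in LPS livers and 3345, 3314 and 3579 in mock livers (-1.66 ± 0.065). Npm1 (0.91), Nob1 (1.02) and Nip7 (0.81) rose. Tubulins, the subunits of microtubules, were drawn up as a list after the values of Tubb2a were seen, and 5 of 10 rose and 2 fell. Tubb2a measured 18033, 17454 and 18102 in LPS+genipin livers, against 2040.0, 2091 and 1994 in LPS livers and 2631, 2605 and 2368 in mock livers, an 8.75-fold gain. Tuba1c rose 3.58-fold and Tubb6 2.02-fold, while Tubb4a (-1.36 ± 0.30) and Tubg2 (-1.11 ± 0.28) fell. Both that fell had a wide spread within groups and their highest value on LPS array 3. The probe used for Tubb5 was not called (0.26), but a second probe of that gene was called higher at 1.92.

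Of the unfolded protein response of the endoplasmic reticulum, 12 of 23 genes were lower and 3 higher, with a median of -0.20. Sdf2l1, a cofactor of the chaperone BiP, measured 1698, 1582 and 1646 in LPS+genipin livers, against 3413, 3544 and 4039 in LPS livers and 3579, 3644 and 3610.2 in mock livers, a 2.23-fold loss. Sec61b, of the translocation channel (-1.14), Creld2 (-0.88) and Manf (-0.64) also fell. Of 27 genes of the amino acid response 9 fell and 3 rose. The tryptophan-tRNA synthetase Wars, which interferon gamma induces, measured 871, 828 and 942 in LPS+genipin livers, against 1785, 1754 and 1656 in LPS livers (-0.98 ± 0.06). Ddit4, an inhibitor of mTORC1, also fell (-0.83). Genes of the p53 response were higher in 9 and lower in 2 of 17 cases, with a median of 0.28. Mdm2, the ubiquitin ligase of p53, measured 11367, 12015 and 11837 in LPS+genipin livers, against 5305, 5480.3 and 4778 in LPS livers and 3134, 3004 and 3171 in mock livers, a 2.27-fold gain. Plk2 (1.58), Gadd45a (1.55) and Ccng1 (1.34) rose as well. Immediate early genes split, with 11 of 24 higher and 8 lower. Dusp6, a phosphatase that switches off ERK, measured 2948, 3253 and 3166 in LPS+genipin livers, against 598, 461 and 361 in LPS livers (2.75 ± 0.17), and Klf2, an endothelial transcription factor, fell (-1.48 ± 0.061).

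Genes of bile acid handling, fatty acid synthesis and the clock were more often higher than lower. Of 25 bile acid genes 12 rose and 4 fell, with a median of 0.20. Cyp7a1, the rate-limiting enzyme of bile acid synthesis, measured 1224, 1124 and 1204 in LPS+genipin livers, against 505, 504 and 682 in LPS livers and 9595, 9665 and 10379.9 in mock livers. The treated level was 2.12-fold above LPS (adjusted p 0.000167) and still far below every mock array. Klb, the co-receptor for FGF15 in hepatocytes, measured 1386, 1471 and 1347 in LPS+genipin livers, against 397, 388 and 339.8 in LPS livers and 1747, 1586 and 1648 in mock livers, a 3.74-fold gain. Nr0b2, the repressor SHP, fell 2.15-fold, with 378, 392 and 407 in LPS+genipin livers, against 864, 952 and 731 in LPS livers and 3145, 3120.3 and 2829 in mock livers. Slc51b, which exports bile acids across the sinusoidal membrane and is induced by the bile acid receptor FXR, fell 4.81-fold, with 1284, 1063 and 1095 in LPS+genipin livers, against 5206, 5231 and 6119 in LPS livers and 1169, 1223 and 1186 in mock livers. Nr0b2 and Slc51b are among the 4 of the list that fell.

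Among 25 genes of fatty acid and triglyceride synthesis 13 rose and 3 fell (median 0.25). Mid1ip1, which activates acetyl-CoA carboxylase, measured 4309, 4861 and 4365 in LPS+genipin livers, against 1516, 1359 and 1301 in LPS livers and 10471, 9789 and 7786 in mock livers, a 3.24-fold gain. Of 17 genes of cholesterol synthesis and uptake 7 fell and 4 rose, Srebf2, its transcription factor, among the lower ones (-0.69 ± 0.17). Genes of fatty acid oxidation were mixed (9 higher and 7 lower of 36), under the background shares in both directions. Cyp4a14, a PPARA-regulated fatty acid hydroxylase, measured 1024, 1096 and 1157 in LPS+genipin livers, against 3301, 3366 and 3301 in LPS livers and 6211, 6813 and 6622 in mock livers, a 3.05-fold loss. Of 14 clock genes 9 rose and 3 fell (median 0.42). Dbp, a clock output factor, measured 4216, 4989.6 and 4286 in LPS+genipin livers, against 2112, 2243 and 2439 in LPS livers and 14413, 13991 and 11882 in mock livers (0.99 ± 0.10). Nampt, which makes NAD precursors and is also secreted in inflammation, fell 2.64-fold.

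Xenobiotic metabolism genes were higher in 16 and lower in 7 of 39 cases, with a median of 0.13. Aox1, an aldehyde oxidase, measured 8045, 7972 and 8446 in LPS+genipin livers, against 2219, 2488 and 1989 in LPS livers and 3329.6, 3204 and 3747 in mock livers, a 3.67-fold gain. Among 20 metal-handling genes 6 rose and 2 fell, near the background share upward and under it downward. Slc40a1, ferroportin, the exporter of iron from cells, measured 32119, 32358 and 32651 in LPS+genipin livers, against 4809, 5617 and 4613 in LPS livers and 43543, 42269 and 44574 in mock livers. It was 6.48-fold above LPS (adjusted p 3.08e-07) and below every mock array. Slc30a1, a zinc exporter, rose 2.94-fold. Among 27 genes of glycolysis and gluconeogenesis 12 rose and 7 fell, the hexokinase Hk2 being 2.29-fold lower and the glucose transporter Slc2a1 2.38-fold higher. Ddc, which decarboxylates aromatic amino acids, was 4.49-fold higher, with 2355, 2264 and 2607 in LPS+genipin livers, against 541, 566 and 502 in LPS livers and 5963, 5409 and 6301 in mock livers.

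Several lists stood near or under the background shares of 29.3% higher and 24.7% lower. Oxidative phosphorylation had 3 higher and 1 lower of 42, and urea cycle and amino acid catabolism 5 and 5 of 32. Glucocorticoid-responsive genes had 5 higher and 4 lower of 18, cell cycle genes 4 and 3 of 14, and cytosolic ribosomal proteins 3 and 1 of 10. Endothelial activation and coagulation had 5 higher and 3 lower of 21. Matrix and TGF-beta genes had 9 higher and 4 lower of 18, above the background upward and near it downward. Among them Mmp13, a collagenase, fell 3.74-fold and Col1a2, a chain of collagen I, rose 2.08-fold. Acute-phase proteins, the secreted hepatocyte response, had 0 higher and 5 lower of 27, but 14 of them were at the ceiling in both groups and could not be compared. Of those in range, Serpina3g, a serine protease inhibitor, measured 4937, 4530.5 and 4348 in LPS+genipin livers, against 15208, 15349.6 and 16441 in LPS livers and 456, 416 and 375 in mock livers, a 3.4-fold loss. Lbp, the LPS-binding protein, measured 27706, 28394 and 27429.7 in LPS+genipin livers, against 33961, 36877 and 41095 in LPS livers and 8465, 8821 and 8237 in mock livers (-0.42 ± 0.071).

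**Figure D4:**
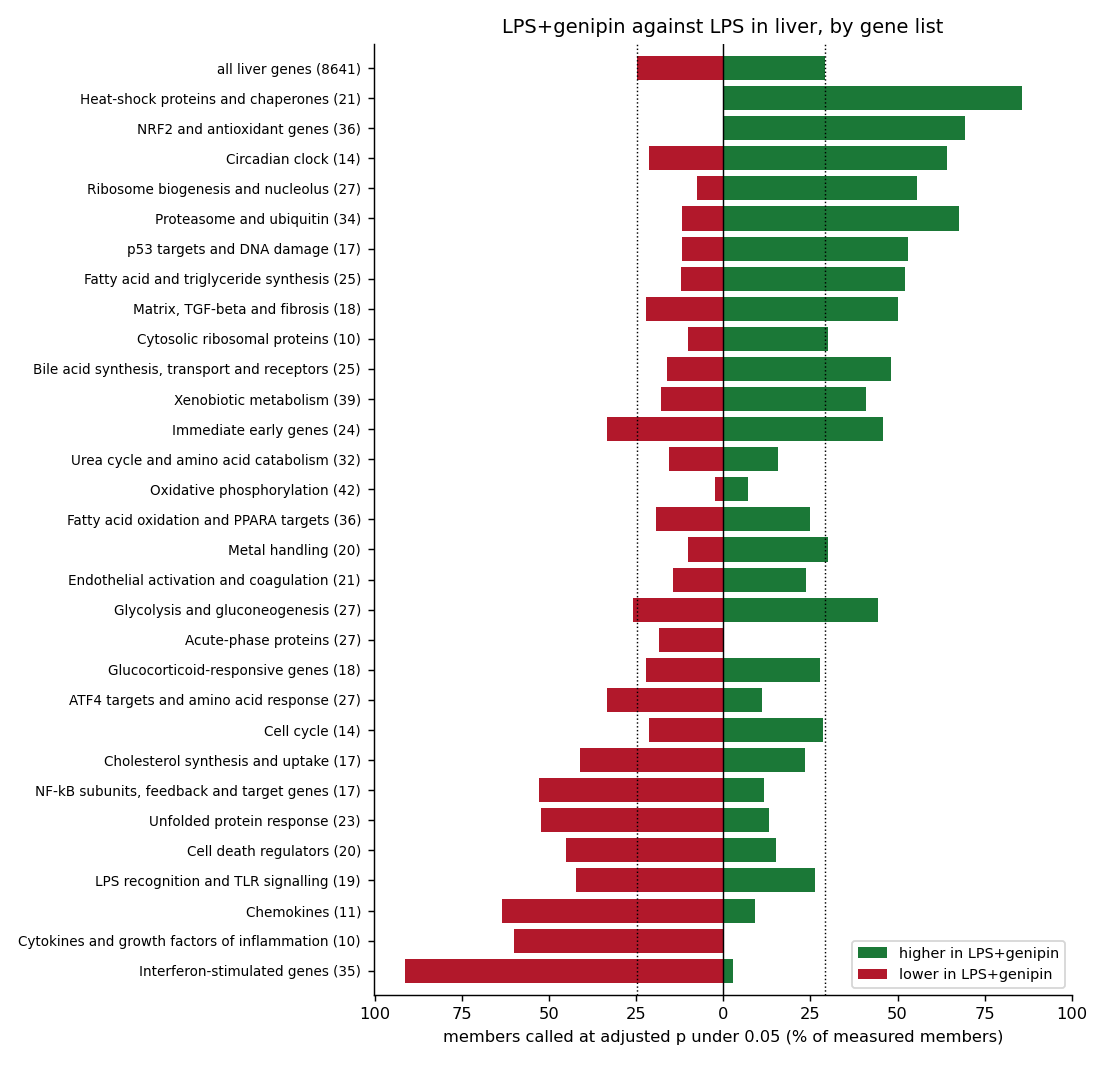
Share of the measured members of each gene list that was higher (green, to the right) or lower (red, to the left) in LPS+genipin than in LPS livers at an adjusted p under 0.05, sorted by the median difference; the number of measured members is in brackets and the dotted lines mark the shares over all 8641 genes, 29.3% and 24.7%. Heat-shock and antioxidant genes reach furthest to the right and interferon-stimulated genes furthest to the left.

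Markers of the cell types that a liver sample can hold were examined beside these changes. Their counts stand against 29.3% of all genes higher and 24.7% lower. In bulk tissue, fewer cells of a type and less RNA per cell cannot be told apart. Hepatocyte markers had 1 of 11 higher and 0 lower, under these shares in both directions. Only 4 of them were below 60000 on all 6 arrays, with summed intensities of 133469 to 134833 in LPS+genipin livers and 128735 to 142593 in LPS livers, and the other 7 were saturated on some or all arrays. Neutrophil markers had 3 of 4 lower and the other one, Lcn2, at the ceiling in both groups. The summed intensity of the 3 in range was 61776 to 66492 in LPS+genipin livers, 87965 to 92270 in LPS livers and 4112 to 4374 in mock livers. S100a8, a neutrophil calcium-binding protein, measured 31563, 31898 and 28910.0 in LPS+genipin livers, against 43031, 46601 and 45349.6 in LPS livers and 1562, 1973 and 1516 in mock livers (-0.55 ± 0.10). Platelet markers had 4 of 4 lower, with sums of 3483 to 3599 in LPS+genipin livers, 5259 to 5843 in LPS livers and 1600.0 to 1759 in mock livers. Of these calls, Ppbp fell short of the threshold in 9 of 22 alternative settings, Gp1ba in 6 and Itga2b in 1, so that 1 to 4 were lower depending on the setting. The part of these cells in the lower cytokine and chemokine levels was not tested.

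Kupffer cell and macrophage markers had 2 higher and 2 lower of 14, under the background shares of 29.3% and 24.7% in both directions. Their sums were 62188 to 64009 in LPS+genipin livers, 66394 to 71056 in LPS livers and 40350 to 41380 in mock livers. The largest member of the first 2 sums was Marco (-0.19). It measured 33961, 32604 and 35497 in LPS+genipin livers, against 37036, 40007 and 39329 in LPS livers and 6149, 6062 and 6461 in mock livers. Vsig4, the complement receptor of Kupffer cells, was lower (-1.13 ± 0.15), with 3436, 3084 and 3006 in LPS+genipin livers, against 5547, 6899.7 and 8791 in LPS livers. Its highest value was on LPS array 3. Csf1r (0.38) and Adgre1 (0.32) were the 2 that rose. The call of Adgre1 fell short of the threshold in 7 of 22 alternative settings and that of Marco in 3. Endothelial markers had 7 higher and 4 lower of 14, above the background share upward and near it downward. The endothelial sums were 32798 to 34657 in LPS+genipin livers, 30715 to 32746 in LPS livers and 50181 to 51195 in mock livers. Kdr, the receptor VEGFR2, measured 1399.8, 1440.0 and 1684 in LPS+genipin livers, against 287, 392 and 289 in LPS livers and 3509, 3404 and 3814 in mock livers, a 4.71-fold gain that left it below every mock array. Ehd3, an endocytosis protein of sinusoidal endothelium, was 2.93-fold higher and the cadherin Cdh5 lower (-0.86). Stellate cell and fibroblast markers had 6 higher and 3 lower of 11, likewise above the background share upward and near it downward. The sums of this list were 38725 to 39006 in LPS+genipin livers and 32436 to 37143 in LPS livers. Of the smaller marker lists, pancreatic acinar genes had 3 of 4 lower, red blood cell genes 2 of 2, B cell genes 2 of 2, cholangiocyte genes 1 of 3, skeletal muscle genes 1 of 2 and monocyte genes 1 of 4 with 1 higher. Over the alternative settings 2 to 3 acinar, 1 to 2 red blood cell and 0 to 2 B cell genes were lower, and Cel (acinar), Cd79a and Pax5 (B cell) and Alas2 (red blood cell) fell short of the threshold in 12, 12, 8 and 7 of 22 settings. The single measured markers of T and NK cells, of adipocytes and mesothelium, and of kidney tubule were not called, and no dendritic cell marker was measured.

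Outside the lists, the genes with the largest gains included Foxq1, a forkhead transcription factor, with 3576, 3642 and 3535 in LPS+genipin livers, against 394, 412 and 384 in LPS livers and 2042, 1798 and 1757 in mock livers, a 9.04-fold gain. Tmprss2, a transmembrane serine protease, rose 5.6-fold, with 2521, 2428 and 2399.7 in LPS+genipin livers, 410.4, 468 and 436 in LPS livers and 542, 467 and 463 in mock livers. Rhpn2 (5.93-fold), Fgd6, an exchange factor for the small GTPase Cdc42 (5.82-fold), Cks2, a partner of cyclin-dependent kinases (5.52-fold), and Nipal1 (5.27-fold) were higher as well. Genes under the floor on all LPS arrays could only be given a bound. Fam13a was at least 8.42-fold higher, with 2230.1, 2100.0 and 2309.8 in LPS+genipin livers and 3225, 3139 and 3578 in mock livers. Slc10a2, a sodium-dependent bile acid transporter, measured 879.5, 898 and 859 in LPS+genipin livers and was under the floor in both other groups, at least 3.34-fold higher than in LPS livers. Nrsn1 (at least 4.09-fold), 6430548M08Rik (at least 3.66-fold) and Rassf6 (at least 3.54-fold) completed the 5 largest bounds upward. The largest bounds downward, beside those of Ifi47 and Cxcl9, were those of Papln (at least 2.87-fold), 3830406C13Rik (at least 2.4-fold) and Hap1 (at least 2.34-fold). Crybb3, named for a lens crystallin, was 7.96-fold lower with tight groups, at 1086, 1134 and 1091 in LPS+genipin livers, against 9026, 7986 and 9382 in LPS livers and 601, 599 and 551 in mock livers. Dydc2 was 6.71-fold lower, with 1284, 1237 and 1117 in LPS+genipin livers, against 7584, 7715 and 9171 in LPS livers and 631, 604 and 514 in mock livers.

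Another kind of lower gene had a wide spread between arrays of a group. Csta2, a cystatin, measured 2734, 744 and 1479 in LPS+genipin livers, against 12071, 11804 and 19218 in LPS livers and 8178, 9564 and 8353 in mock livers, a difference of -3.28 ± 0.43 (SE), with an adjusted p of 0.000484. Nwd1 (-2.92 ± 0.39), Rai1 (-2.62 ± 0.31) and Eid1 (-2.54 ± 0.62) were similar, and in each of these 4 the highest value was on LPS array 3. Of the 420 genes lower by at least 2-fold, 217 (51.7%) had an SD over 0.3 among the LPS arrays, against 10.6% of all genes and 3.65% of those higher by at least 2-fold. LPS array 3 was the highest LPS array for 69.5% of the 420, against 29.8% of all genes and 13.3% of those higher by at least 2-fold. Olfactory and vomeronasal receptors, which are sensory genes of the nose and were listed after their values were seen, belonged here, with 43 of 65 lower, 0 higher and a median of -0.80. Olfr702, chosen after its values were seen, measured 804, 280.4 and 430.1 in LPS+genipin livers, against 2357, 1899.7 and 4197 in LPS livers and 969, 1028 and 1099 in mock livers. Without LPS array 3, 34 of the receptors were still lower with a median of -0.63, and 327 genes in all were lower by at least 2-fold. With the floor doubled 20 receptors were lower. A technical part in these changes was not tested.

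Genes that LPS raised in brain, heart and kidney alike were chosen without any liver array and then read in liver. Of 71 such genes 66 were measured in liver, and 47 were lower in LPS+genipin than in LPS livers, 7 higher, with a median of -0.68. Over all liver genes 24.7% were lower and 29.3% higher. Leaving out the interferon list, 32 of 51 were lower and 7 higher, with a median of -0.48. Those that rose were Ccn1, Maff, Pde4b, Tubb6, Icam1, Cdkn1a and Cyp2f2. It is not stated whether the 4 tissues came from the same mice.

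The difference between LPS+genipin and LPS was then set against the mean of the same difference in brain, heart and kidney, over 6797 genes measured in all 4 tissues. It departed for 3111 genes (45.8%), 1760 upward (25.9%) and 1351 downward (19.9%). Hspa1b departed most, with 3.58 in liver, 0.018 in brain, -1.47 in heart and 0.88 in kidney. Ccn1, a matricellular protein, rose in liver (2.43) and was -0.69, -1.49 and -1.32 in brain, heart and kidney. Its liver intensities were 1434, 1455 and 1849.9 in LPS+genipin livers, against 327, 289.6 and 217 in LPS livers and 391, 376 and 403 in mock livers. Rcan1, an inhibitor of calcineurin, had 2.35 in liver and -0.002, -1.79 and -0.55 in brain, heart and kidney. Gclc was close to 0 in brain and heart (0.21 and 0.054) and -0.60 in kidney, and Tubb2a was -0.0084, 0.0058 and -0.33 in those 3 tissues. Srxn1 and Fam13a had positive differences in kidney too (1.24 and 1.68), smaller than in liver. Tnfrsf12a, the receptor of TWEAK, had 2.23 in liver, with 8526, 8897 and 7578 in LPS+genipin livers, against 1924, 1794 and 1627 in LPS livers and 447, 426 and 399 in mock livers. It was negative in the other tissues, between -0.80 and -0.39.

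Downward, Cmpk2, Ifit2 and Ifit3 fell further in liver than elsewhere. Cmpk2 had -3.87 in liver, -2.19 in heart and -1.27 in kidney but was little changed in brain (-0.079 ± 0.075, SE). Ifit2 had -4.23 in liver and -1.72, -1.61 and -2.83 in brain, heart and kidney, so the direction was shared and the size differed. Slc6a6, the taurine transporter, fell in liver, with 1861, 1714 and 1972 in LPS+genipin livers, against 6654, 6236 and 5709.7 in LPS livers, and had positive differences in the other 3 tissues (0.13 to 0.35). Nostrin, an endothelial trafficking protein, likewise had -1.15 in liver and 0.47, 0.95 and 0.67 in brain, heart and kidney. Gadd45g rests on 1 array, since it measured 9874, 9447 and 115 in LPS+genipin livers, against 17090.2, 15989.7 and 16493 in LPS livers. It did not pass the test within liver (adjusted p 0.125), and without LPS+genipin array 3 it did (adjusted p 7.35e-05). Csta2, Mfge8, Csn2 and Oxa1l had the wide groups described above, and Mfge8 did not pass without LPS array 3 (adjusted p 0.0556) or without LPS+genipin array 3 (adjusted p 0.0558).

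**Figure D5:**
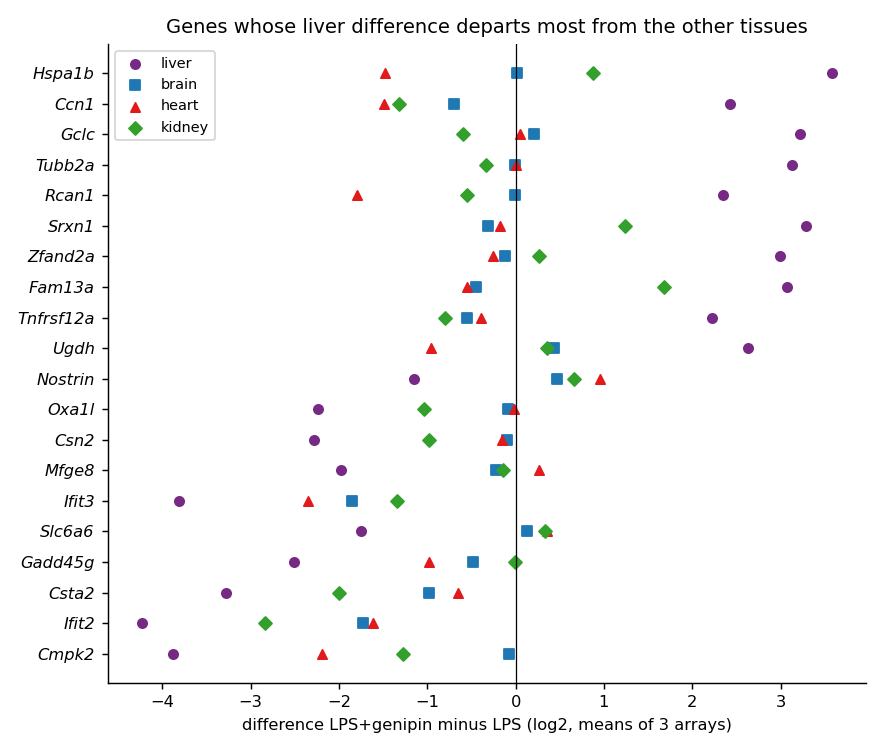
Difference LPS+genipin minus LPS (log2, means of 3 arrays, horizontal axis) in liver, brain, heart and kidney for the 20 genes whose liver difference departs most from the mean of the other tissues, ordered by that departure. Liver (purple circles) lies right of the other tissues for the upper 10 genes and left of them for the lower 10.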

How the data were processed

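Each array was hybridised with Cy5-labelled RNA in 1 colour (5 µg per sample, per the labels' protocols). The authors deposited linear intensities that had been normalized; the sorted values of the 9 arrays of a tissue are nearly identical. limma is named in the submitters' processing notes, without version or role. No source used here gives the background correction, scanner or probe filter. Of 18183 probes 11879 had liver values, and 14817 had 1 gene symbol and 3366 none; symbols were updated through RefSeq (12468 current, 2318 from a synonym, 31 kept as given). Where a gene had several probes, the one with the highest mean over 36 arrays was used; 1146 genes had over 1 probe in liver, and for 67 of these probes were called in opposite directions, none of them among the genes named by rule.

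Intensities below 263, the 5th percentile, were set to it, and log2 was taken. Values at or above 60000 were treated as saturated. Where all 3 arrays of a group lay at a limit, the fold is a bound. Group means were fitted over the 9 liver arrays with limma 3.58.1 in R 4.3.3 (lmFit, eBayes), with Benjamini-Hochberg adjustment over 8641 genes at 0.05. The departure from other tissues was a contrast in a fit over 36 arrays. The script was tested on simulated data. The number of arrays limits the precision. Genes were named by fixed rules: the 15 largest called, non-overlapping differences each way, the 5 largest bounds each way, up to 5 called and 2 uncalled members per list, and the 10 largest departures each way; others are marked. The members and gene lists were chosen with earlier results of these data known. Promoters are RefSeq's (GRCm38.p6), with a single chromosome left out, and 7055 of 8641 genes matched.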

Additional observations from a re-analysis of the deposited data

Results flagged for a closer look

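The liver difference between LPS+genipin and LPS departed from the mean of brain, heart and kidney in a direct test of that difference. The 10 largest departures upward, in log2 units, were those of Hspa1b (3.77), Ccn1 (3.59), Gclc (3.34), Tubb2a (3.24), Rcan1 (3.14), Srxn1 (3.04), Zfand2a (3.03), Fam13a (2.85), Tnfrsf12a (2.8) and Ugdh (2.69). The 10 largest downward were those of Cmpk2 (-2.69), Ifit2 (-2.17), Csta2 (-2.06), Gadd45g (-2.02), Slc6a6 (-2.02), Ifit3 (-1.96), Mfge8 (-1.94), Csn2 (-1.88), Oxa1l (-1.85) and Nostrin (-1.85). All 20 had an adjusted p under 0.05, the largest being that of Gadd45g (0.0295), whose value rests on LPS+genipin array 3.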

How the results depend on the processing

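The counts of called genes were recomputed under 22 alternatives. Between 3621 (with the dimmest genes left out) and 4905 (array weights) genes were called with 1 value per gene, against 4666, and 6410 when all probes were tested singly. Calls of at least 2-fold numbered 1121 with all probes tested singly (489 higher, 632 lower), where more features are tested. Leaving out single arrays gave 3945 to 4632 calls, and 589 to 854 of at least 2-fold, with 262 to 331 higher and 327 to 523 lower. Omitting LPS array 3 and LPS+genipin array 1 together, an omission chosen after seeing the data, gave 4018 calls. With the replicate number as a block, though numbers do not pair the arrays (same-numbered deviations correlated at -0.48, 0.076 and -0.53, while LPS+genipin 1 with LPS 3 gave 0.594 and LPS+genipin 3 with LPS 1 gave 0.478), 4237 genes were called; 32 interferon-stimulated genes were lower and 18 heat-shock genes higher, the same counts as without it. The median of the genes chosen in the other tissues was -0.739 without LPS replicate 3 and -0.635 without LPS+genipin replicate 1, its lowest and highest. Averaging all probes of a gene turned Kmo from -0.30, not called, to 0.39 (adjusted p 0.00306), and Upk3b, the single marker of adipocytes and mesothelium, to 0.25; their probes disagree. Over 296 named genes, 6157 of 6465 recomputed differences kept their side of the threshold. A further 156 fell short of it, in 33 genes, 151 passed it anew, in 46 genes, and 1, of Kmo, reversed. The 6157 include changes of direction where neither fit called the gene, as for Upk3b with its probes averaged. For the gene lists, 34 of the recomputed medians moved and 1 reversed, against 995 that did not, and 143 counts of called members moved by over 1.5 times, against 1917 that did not. With the floor doubled Papln and 3830406C13Rik were no longer called (adjusted p 0.127 and 0.169), nor was Tek (adjusted p 0.12). Arrays were saturated above 60000 and uninformative below 263; 14 acute-phase genes were at the ceiling in both groups.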
